A study of Mus musculus with 30 samples.

Results

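The response of intronic reads to withdrawal of doxycycline (DOX) was examined in mouse embryonic stem (ES) cells whose Esrrb comes from a DOX-inducible transgene. The contrast set all 9 withdrawn libraries against all 9 DOX libraries, with cell-cycle phase and replicate number as blocks, and used 18 of the 30 libraries of the series. All 18 came from EKOiE cells carrying a Ccna2-Gfp reporter, of strain 129/Ola, grown in serum with LIF. These cells lack Esrrb from its own locus and carry the inducible copy, and every group shares that genotype. The reporter was used to sort cells by phase (early G1, late G1, G2). In each phase, 3 libraries came from cells with DOX and 3 from cells 24 h after DOX was removed. The line is a single engineered line, and the labels do not say whether replicates were separate cultures, so p-values measure the spread between these samples. Each gene was set against the same contrast in the exonic counts of the same libraries, so that changes seen in both kinds of read could be told from those seen in one.

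Esrrb is an orphan nuclear receptor of the naive pluripotency network, which binds DNA near genes of self-renewal and of oxidative metabolism. Exonic reads come mostly from mature mRNA. Intronic reads come mostly from unspliced transcripts, and are used as a stand-in for ongoing transcription, because introns are removed and degraded soon after synthesis. Both readouts of a gene can therefore change by different amounts, and reads of other transcripts that overlap an intron are counted with it.

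The libraries are not all independent. In 5 of the 153 pairs of libraries, counts differed by only 1.05 to 1.18 times counting noise in both tables, against 4.57 to 19.7 times (exonic) and 3.83 to 40.3 times (intronic) between replicates of one group. Each of the 5 pairs carried the same DOX state and number but different phase labels. They were early and late G1 with DOX (number 2), early G1 and G2 after withdrawal (number 2), late G1 and G2 with DOX (number 1), early G1 and G2 with DOX (number 3), and late G1 and G2 after withdrawal (number 3). No 2 columns were identical. Such libraries may be one library under 2 labels, so each pair was counted as 1 sample by its mean, which leaves 13 distinct samples, 6 with DOX and 7 withdrawn. A further pair, early and late G1 after withdrawal (number 1), differed by 2.39 (exonic) and 1.75 (intronic) times counting noise, also below all replicates of one group, and was kept as 2 samples. Late G1 with DOX (number 3) was also below them, against early G1 (4.34 and 3.48) and G2 (4.48 and 3.75) of its number, and was kept apart. In introns alone, some DOX and withdrawn libraries of number 3 were closer than any replicates, down to 3.06 times. The 13 samples may therefore still not all be independent. Values per sample below are over these 13. Because the 18 libraries overstate the replication, each count is followed by that of a fit over the 13 distinct samples, with the replicate number but no phase as a block, called the 13-sample fit.

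**Figure D1:**
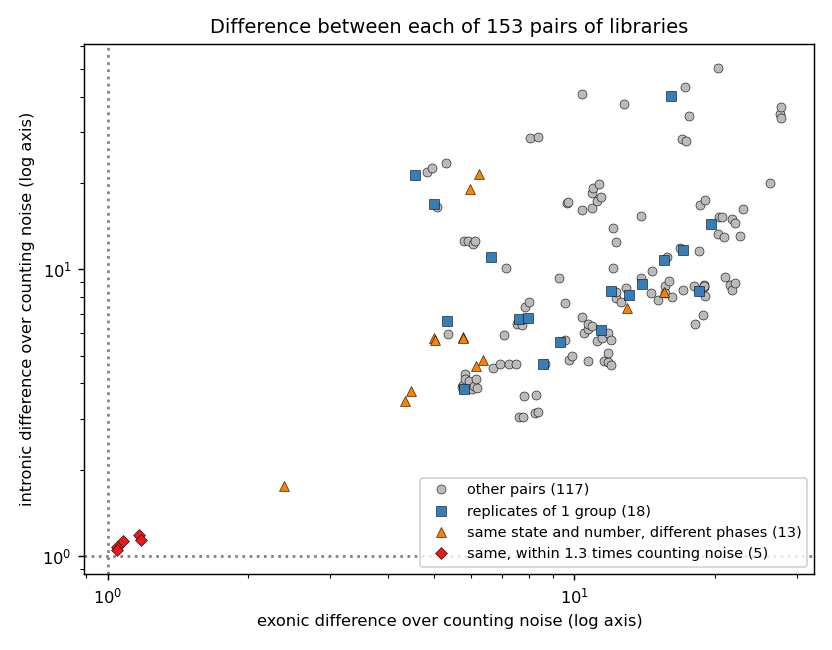
Distance between libraries in multiples of counting noise, for the 153 pairs of the 18 libraries, with exonic counts on the horizontal and intronic counts on the vertical axis (both logarithmic). The 5 pairs at 1.05 to 1.18 times counting noise stand apart from the replicates of a group, at 3.83 to 40.3 times in intronic counts.

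Each library held 11.1 to 31.8 M exonic and 6.10 to 20.8 M intronic counts, where M stands for mega. Introns held 33.3 to 46.0% of a library's counts with DOX (median 38.4%) and 33.3 to 39.6% after withdrawal (median 35.4%). The mean difference of -2.25 percentage points, lower in 5 of 9 pairs of the same phase and number, did not pass an exact 2-sided sign-flip test over the 9 pairs (p = 0.152), and by number it was -2.9, -5.1 and 1.3 points. The 9 pairs share near-identical libraries, so this p treats them as more independent than they are. Over the 3 numbers alone, the smallest p that a sign-flip test can give is 0.25. Leaving out a library of early G1, number 1 or number 2, with DOX or withdrawn, moved the mean difference to -1.5 or -1.45 points. One gene, Tex14, took 3.92 to 16.7% of all intronic counts. Of the ES markers, exonic Pou5f1, the pluripotency factor Oct4, stood at 1290 to 1460 counts per M (CPM) with DOX and 1250 to 1630 after withdrawal. Fewer cells of a type and less RNA per cell cannot be told apart in these bulk samples.

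The withdrawn gene was read first. Exonic Esrrb was 203, 272 and 341 CPM (lowest, median and highest sample) with DOX and 140, 162 and 195 after withdrawal. The 2 states did not overlap, and exonic Esrrb fell by 0.68 ± 0.08 on the log2 scale (± is the standard error throughout, edgeR adjusted p = 2.34e-06 over the 18 libraries and 0.000883 in the 13-sample fit, with 6 and 7 distinct samples). SEs and adjusted p-values are from the 18 libraries, which overstate the replication, unless the 13-sample fit is named. Intronic Esrrb was 110, 115 and 121 CPM with DOX and 87.0, 100 and 123 after withdrawal. These ranges overlapped, and the intronic change of -0.13 ± 0.05 did not pass (edgeR adjusted p = 0.0749, and 0.202 in the 13-sample fit). It did pass without the library of early G1 or of G2 after withdrawal, number 2 (edgeR adjusted p = 0.0323 and 0.0478), and was -0.21 without number 2 altogether (edgeR adjusted p = 0.0219). Under library totals its sign turned, to 0.07. The exonic change was lower than the intronic one by 0.54 ± 0.08 log2 (edgeR adjusted p = 0.000103, and 0.0144 in the 13-sample fit). With counts summed over phases and the replicate block it was -0.53 and did not pass (edgeR adjusted p = 0.0508), nor did it in early G1 or G2 alone (0.266 and 0.156). The labels do not say whether the transgene carries introns, and reads of the transgene and of the locus cannot be told apart. Ccna2, the cyclin A2 gene behind the sorting reporter, passed in neither intron (-0.18 ± 0.08, edgeR adjusted p = 0.106) nor exon (0.07 ± 0.08, edgeR adjusted p = 0.565).

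Of 14075 genes tested in introns, 2438 changed (17.3%), of which 1205 fell (8.56%) and 1233 rose (8.76%). In the 13-sample fit 963 changed, 428 down and 535 up, all of them among the 2438. In exons, 5426 of 14092 genes changed (38.5%), with 2726 falls (19.3%) and 2700 rises (19.2%), and 3023 changed in the 13-sample fit. Intronic changes were small, with a median absolute log2 change of 0.31 among called genes, against 0.32 in exons. The 2 states did not overlap over the 13 samples for 208 genes (1.48%).

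The calls rest on how the samples were combined. With counts summed over the 3 phases, 502 intronic genes changed with replicate number as a block (212 fell, 290 rose). Without the block none did with edgeR, although 962 had an unadjusted p under 0.05. Without the block, 736 changed over the 18 libraries and 138 over the 13 samples. Leaving out all libraries of number 1, 2 or 3 gave 1361, 1818 and 1398 calls. Scaling set the balance of direction as well. With library totals and no scaling factor, the median gene moved up by 0.20 log2 and 116 genes fell against 3625 that rose. With the exonic library sizes and factors it moved up by 0.11 and 417 fell against 2520 that rose. All directions below are relative to the median intronic gene (TMM scaling), and list counts under these 2 scalings are given where they turn.

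**Figure D2:**
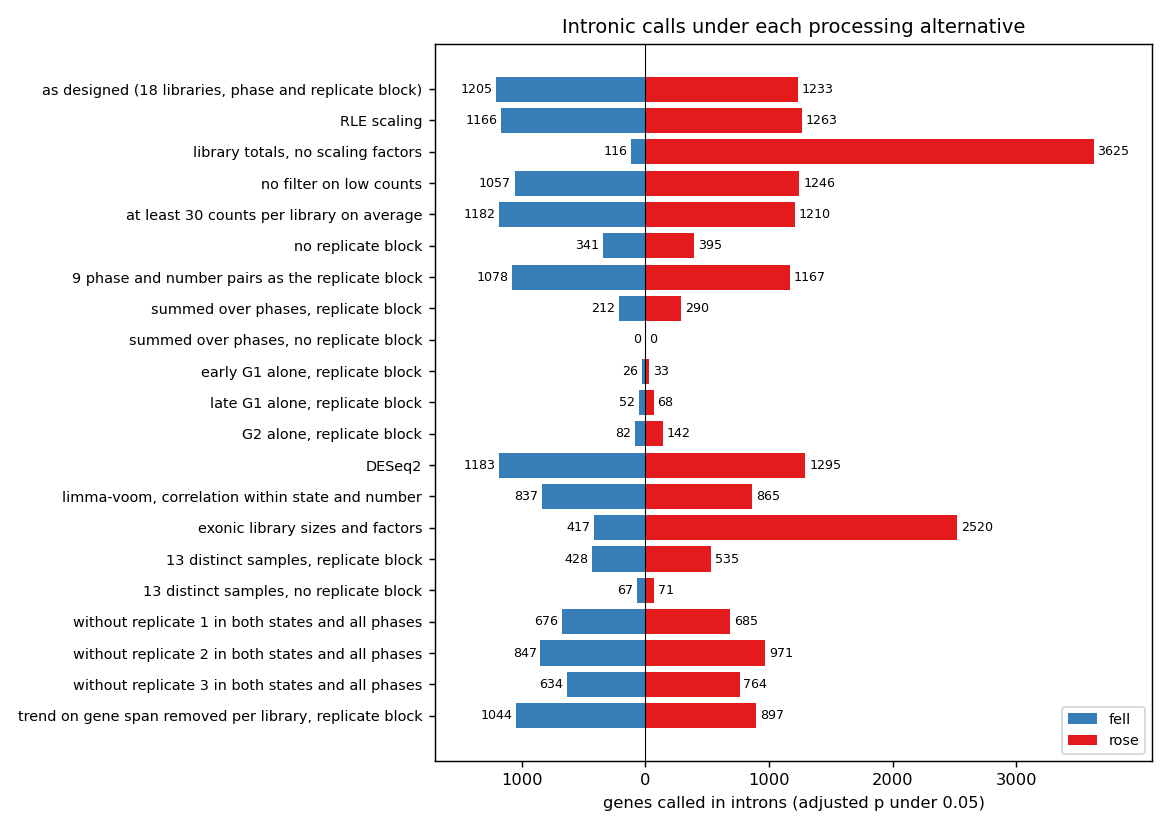
Number of genes whose intronic counts fell or rose after withdrawal under each alternative, as bars from 0. Calls ran from 0 (summed over phases, no replicate block) to 3741 (library totals), against 2438 over the 18 libraries and 963 over the 13 distinct samples.

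The 12 largest intronic falls were Fabp3, Tinagl1, Col11a2, Kdelr3, Ccdc68, Wnt7b, Isg20, Atf3, Rph3a, Egr1, Myoz1 and Fos, taken among called genes with a mean of at least 1 log2 CPM. Fabp3 encodes a fatty acid binding protein of oxidative tissues (chromosome 4, 129986021 to 129992707, build mm9). Its intronic level was 4.89, 5.73 and 8.89 CPM with DOX and 0.837, 2.25 and 2.67 after withdrawal. Every withdrawn sample lay below every DOX sample, and Fabp3 fell by 1.71 ± 0.17 in introns (edgeR adjusted p = 8.12e-07, and 0.000769 in the 13-sample fit) and by 1.78 in exons. Tinagl1, a secreted matrix protein gene (chromosome 4, 129842843 to 129852366), was at 3.62, 4.55 and 5.35 CPM with DOX and 0.637, 1.59 and 2.84 after withdrawal, again without overlap. Its log2 change was -1.37 ± 0.18 in introns and -1.68 in exons. Wnt7b, a Wnt ligand, went from 14.4, 17.6 and 21.2 CPM to 7.65, 8.29 and 10.6. It too fell without overlap, by 1.06 ± 0.09 (edgeR adjusted p = 1.29e-07, and 4.76e-05 in the 13-sample fit), and its exons fell by 1.13.

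Col11a2 encodes a fibrillar collagen chain, and its introns fell, with a range of 4.16 to 8.02 CPM with DOX and of 1.72 to 3.42 after withdrawal. Kdelr3, which retrieves escaped proteins for the endoplasmic reticulum, fell by 1.10 ± 0.14 in introns and by 2.11 in exons. Its exonic change was lower by 1.02 log2 (edgeR adjusted p = 0.000118, and 0.0031 in the 13-sample fit), and its gene overlaps Ddx17 on the other strand. The transcription factor genes Atf3, Egr1 and Fos, which respond within minutes to growth signals and stress, fell by 1.01 ± 0.19, 1.00 ± 0.14 and 0.97 ± 0.19 in introns. Isg20, an exonuclease gene induced by interferon, did not pass in the 13-sample fit, and Myoz1, a muscle Z-disc protein gene, did not pass without the replicate block.

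The 12 largest intronic rises were Bcl11a, Gap43, Rassf9, Vstm5, Cd96, Trim46, Hopx, Mmd2, Mecom, Apol6, Izumo2 and Fam196b. All 12 passed in the 13-sample fit. Gap43, a growth-cone protein of neurons (chromosome 16, 42248673 to 42340764), was at 3.28, 5.95 and 7.14 intronic CPM with DOX and 7.65, 11.2 and 20.1 after withdrawal. No sample of the 2 states overlapped, and Gap43 rose by 1.22 ± 0.12 (edgeR adjusted p = 6.29e-07, and 0.00076 in the 13-sample fit), with an exonic rise of 0.97. Bcl11a, a zinc-finger transcription factor of blood and brain, was at 1.73, 2.79 and 3.95 CPM and then at 3.40, 7.86 and 10.1. The lowest withdrawn sample lay within the DOX range, and the log2 change was 1.33 ± 0.16 (edgeR adjusted p = 7.9e-06, and 0.000585 in the 13-sample fit). Cd96, an immunoglobulin-like receptor of lymphocytes, rose as well, with a range of 1.90 to 3.58 CPM with DOX and of 4.67 to 7.85 after withdrawal.

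Mecom, a zinc-finger transcription factor of blood stem cells, rose too (3.11 to 9.57 CPM with DOX, 10.4 to 15.6 after withdrawal), and its exons were too low to be tested. Hopx, an atypical homeobox gene, rose by 1.06 ± 0.13 in introns, and its smaller exonic rise of 0.27 passed narrowly over the 18 libraries (edgeR adjusted p = 0.0499) and not in the 13-sample fit (0.302). The difference between its 2 changes, -0.80 log2, passed (edgeR adjusted p = 0.00078, and 0.0113 in the 13-sample fit). Trim46, a neuronal microtubule protein gene, did not pass when replicate number 1 was left out. Of the 24 largest changes in both directions, 14 had no overlap between the states over the 13 samples. This was so for 8.45% of all called genes and 1.48% of all genes tested. Since the 24 were picked by size in these same samples, the count is no separate support.

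**Figure D3:**
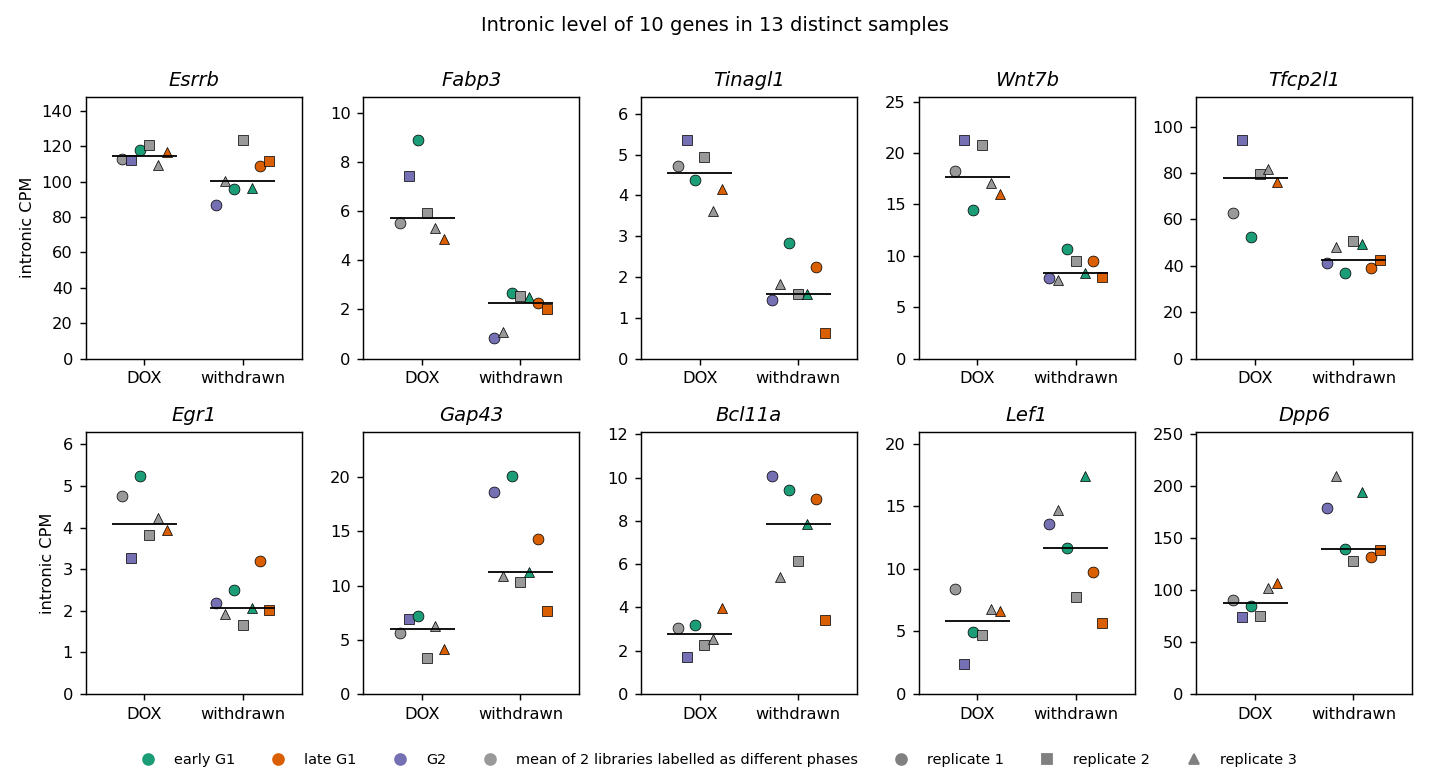
Intronic CPM (vertical axes from 0) of Esrrb and 9 genes described in the text, with one point per distinct sample (6 with DOX, 7 withdrawn; colour for phase, grey for the mean of a near-identical pair, shape for replicate number) and a line at the median. Fabp3, Tinagl1, Wnt7b, Tfcp2l1, Egr1, Gap43 and Dpp6 do not overlap between the states, while Esrrb, Bcl11a and Lef1 do.

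Each list below stands beside all genes tested, with 8.56% falls and 8.76% rises. In the 13-sample fit these were 428 falls and 535 rises of 14075 genes. No list was tested as a set, so counts near these shares are no result about a list. The genes of the naive state that passed in introns all fell. Of 26 tested members of the naive pluripotency list, 7 fell and 0 rose, against 8.56% falls over all genes, with a median log2 change of -0.10 against 0.00 over all genes. In the 13-sample fit 4 fell, namely Tfcp2l1, Klf4, Jam2 and Mybl2. Tbx3, Zfp42 and Dppa5a did not pass there. With exonic library sizes the list gave 5 falls and 2 rises, and with library totals 3 falls and 4 rises. In exons the direction was mixed. Over the 18 libraries 13 of 28 tested members fell there and 5 rose (median -0.154), against 19.3% falls and 19.2% rises over all genes. Tfcp2l1, a transcription factor that sustains self-renewal (chromosome 1, 120524521 to 120581745), was at 52.2, 77.7 and 94.1 intronic CPM with DOX and 36.9, 42.6 and 50.7 after withdrawal. Its highest withdrawn sample lay just under its lowest DOX sample, and it fell by 0.71 ± 0.05 (edgeR adjusted p = 2.22e-08, and 7.88e-05 in the 13-sample fit), with an exonic fall of 0.91. Jam2, a junctional adhesion molecule, fell by 0.58 ± 0.06 in introns and by 1.01 in exons, a difference that passed (edgeR adjusted p = 0.000558, and 0.014 in the 13-sample fit). Intronic Nanog, the homeobox factor of the naive state, had a log2 change of -0.28 that did not pass (edgeR adjusted p = 0.11). Exonic Nanog fell by 0.27, so the 2 changes were alike in size.

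Targets of LIF and STAT3, the cytokine pathway that maintains these cells, gave 5 falls and 1 rise of 17 tested (median -0.02). In the 13-sample fit 4 fell and 1 rose, and with library totals 2 fell and 4 rose. The kinase gene Pim3 fell by 0.46 ± 0.10 and Klf4, a zinc-finger pluripotency factor, by 0.66 ± 0.16. Pramel6, a gene of the early embryo, fell by 1.16 ± 0.33, and Tfcp2l1 belongs to this list too. Ccnd3, cyclin D3, was the rise at 0.38 ± 0.06.

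Formative and primed genes, which mark cells leaving the naive state, gave 1 fall and 5 rises of 18 tested (median 0.13), and 1 and 4 in the 13-sample fit. Lef1, a transcription factor of the Wnt pathway (chromosome 3, 130813214 to 130927275), was at 2.42, 5.81 and 8.36 intronic CPM with DOX and 5.63, 11.7 and 17.4 after withdrawal. These ranges overlapped, and Lef1 rose by 0.92 ± 0.14 in introns and by 1.81 in exons, with a difference of 0.85 (edgeR adjusted p = 0.00497, and 0.0457 in the 13-sample fit). Dnmt3l, the cofactor of de novo DNA methylation, rose by 0.36 ± 0.06, and overlaps Aire on the other strand, whose exons rose by 0.61. Grhl2, an epithelial transcription factor, rose by 0.49 ± 0.05. Sall2, a zinc-finger factor, rose by 0.69 ± 0.18. Fgf5, the classic primed-state growth factor, had 0.87 ± 0.29 and did not pass in the 13-sample fit, and Tcf15 fell by 0.52 ± 0.09.

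Among 18 tested core pluripotency genes, 1 fell and 4 rose (median 0.04), and 0 and 3 in the 13-sample fit. The rises there were Lin28b, an RNA-binding inhibitor of let-7 (0.33 ± 0.05), Chd7, a chromatin remodeller (0.41 ± 0.07), and Tcf7l1, a repressor of Wnt targets (0.61 ± 0.10). Tcf7l1 had no overlap, at 52.6, 84.4 and 88.2 intronic CPM with DOX and 102, 115 and 169 after withdrawal. Chd7 rose more in exons, by 0.87 (edgeR adjusted p of the difference = 0.000449, and 0.0416 in the 13-sample fit). In exons, over the 18 libraries, 16 of 21 tested members rose and 1 fell (median 0.286). Over all genes 19.2% rose and 19.3% fell in exons. The exonic change passed as higher than the intronic one in 8 of 18 members and as lower in 0, against 11.9% and 8.72% of all genes tested in both.

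The Wnt list gave 4 falls and 5 rises of 26 tested (median -0.02), with 2 and 5 in the 13-sample fit and 2 and 9 with library totals. The falls that held in the 13-sample fit were ligand genes, Wnt7b as above and Wnt6 by 1.49 ± 0.25, with a range of 1.46 to 2.12 CPM with DOX and of 0.266 to 1.41 after withdrawal. The rises were nuclear and surface components. They were the transcription factors Lef1, Tcf7l1 and Tcf7l2, the R-spondin receptor Lgr4 and the receptor ubiquitin ligase Znrf3. Lgr4 and Znrf3 were small, at 0.24 ± 0.07 and 0.29 ± 0.07.

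Immediate-early genes gave 6 falls and 0 rises of 13 tested (median -0.20), 5 and 0 in the 13-sample fit, and 4 and 1 with library totals. Besides Atf3, Egr1 and Fos, the falls were Btg2, an antiproliferative gene (-0.56 ± 0.08), Cyr61, a matrix signalling protein gene (-0.59 ± 0.15), and Srf, a growth-response factor (-0.32 ± 0.10), which did not pass in the 13-sample fit. The FGF and ERK list gave 4 falls and 5 rises of 23 tested (median 0.01), with 4 and 1 in the 13-sample fit and 3 and 9 with library totals. Its falls were Egr1, Fos, the receptor Fgfr3 (-0.73 ± 0.17) and the phosphatase Dusp5 (-0.26 ± 0.06), and its rise in the 13-sample fit was the inhibitor Spred2 (0.33 ± 0.09).

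More genes of oxidative metabolism fell than rose, most by small amounts. Of 39 tested, 15 fell and 1 rose (median -0.16), and in the 13-sample fit 8 fell and 1 rose. The balance followed the scaling, with 6 falls and 3 rises under exonic library sizes and 3 falls and 4 rises under library totals. Fabp3 led, followed by Ldhb, the heart-type lactate dehydrogenase subunit, which fell by 0.79 ± 0.10. Its intronic level was 18.2, 28.6 and 30.9 CPM with DOX and 12.2, 15.6 and 18.5 after withdrawal, so that only the edges of the 2 ranges overlapped. Cpt1a, which brings fatty acids into mitochondria, fell by 0.60 ± 0.09, and Cycs, cytochrome c, by 0.49 ± 0.08. The falls of the respiratory subunit genes Sdhb, Cox5a and Atp5b, at -0.19 to -0.21, did not pass in the 13-sample fit. Those of the subunit genes Cox4i1 and Atp5a1 did pass there, at -0.28 and -0.24 in that fit (edgeR adjusted p = 0.0449 and 0.0379). Ppargc1b, a coactivator of the ERR receptors, was the rise (0.60 ± 0.10).

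Glycolysis gave 3 falls and 1 rise of 21 tested (median -0.05), 1 and 1 in the 13-sample fit, and 1 and 5 with either other scaling. The rise was Ldha, the muscle-type lactate dehydrogenase subunit, against the fall of Ldhb. Intronic Ldha was at 46.8, 61.6 and 75.5 CPM with DOX and 76.0, 86.6 and 95.6 after withdrawal. The 2 states did not overlap, and Ldha rose by 0.52 ± 0.07 in introns and by 0.75 in exons.

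Adhesion and junction genes gave 7 falls and 1 rise of 26 tested (median -0.14), and 3 and 0 in the 13-sample fit, namely Jam2, Cdh3 (P-cadherin, -0.57 ± 0.07) and Llgl2, a polarity gene (-0.62 ± 0.06). Library totals gave 3 falls and 5 rises in this list, and exonic library sizes 3 and 4. Llgl2 went from 49.5, 51.6 and 54.4 intronic CPM to 30.3, 33.2 and 39.7, without overlap. Calcium-binding genes gave 7 falls and 0 rises of 15 tested (median -0.29), 4 and 0 in the 13-sample fit, and 3 and 1 with library totals. Pvalb, the calcium buffer parvalbumin, had the largest intronic log2 change of the list at -2.89 ± 0.33, though its highest intronic level was 1.98 CPM. Calm2, a calmodulin gene, fell by 0.48 ± 0.06 in introns while its exonic change of -0.15 did not pass. S100a6, a small calcium-binding protein gene, fell by 0.78 ± 0.14 in introns and had an exonic change of 0.01 (edgeR adjusted p of the difference = 0.000777, and 0.0138 in the 13-sample fit).

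Of 30 tested G1/S and replication genes, 3 fell and 5 rose (median -0.04), and 0 and 5 in the 13-sample fit. All 3 D-type cyclins, which drive G1 with Cdk4 and Cdk6, rose in introns. They differed in exons. Ccnd1 rose by 0.55 ± 0.09 in introns and 0.54 in exons. Ccnd2 went from 1.37, 2.16 and 2.62 intronic CPM to 2.99, 3.38 and 4.43 without overlap, rose by 0.70 ± 0.14 in introns and by 2.15 in exons, and the difference of 1.47 passed (edgeR adjusted p = 4.92e-05, and 0.0031 in the 13-sample fit). Ccnd3 rose by 0.38 ± 0.06 in introns and fell by 0.14 in exons, a fall that did not pass in the 13-sample fit (edgeR adjusted p of the difference = 3.49e-05, and 0.00461 in the 13-sample fit). Ccnd3 overlaps Bysl on the other strand. Cdk6 and E2f3, an S-phase transcription factor, were the other rises (0.31 ± 0.05 and 0.22 ± 0.06).

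G2/M genes gave 3 falls and 1 rise of 25 tested (median -0.13), against 8.56% falls and 8.76% rises over all genes. Only the proliferation marker Mki67 passed in the 13-sample fit (-0.30 ± 0.06), and library totals gave 0 falls and 4 rises. Targets of p53, the DNA damage factor, gave 7 falls and 3 rises of 18 tested (median -0.15), 4 and 2 in the 13-sample fit, 3 and 4 with exonic library sizes and 1 and 5 with library totals. Mdm2, the p53 ubiquitin ligase, fell by 0.23 ± 0.05 and Fas, a death receptor, rose by 0.61 ± 0.14.

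Markers of other cell types were read in the same way, beside 8.56% falls and 8.76% rises over all genes. Primitive endoderm genes gave 2 falls and 2 rises of 14 tested in introns (median 0.10), and the summed intronic level of that list was 430 to 504 CPM with DOX and 440 to 577 after withdrawal. In exons the same list summed to 806 to 1330 CPM with DOX and 1270 to 1910 after withdrawal. Fibroblast and feeder genes gave 0 falls and 1 rise of 6 tested in introns, and none in the 13-sample fit, while their exonic sum was 376 to 533 CPM with DOX and 579 to 1060 after withdrawal. Median exonic sums were higher after withdrawal in both lists (1600 against 1050 CPM, and 689 against 507), with overlapping ranges for primitive endoderm. Calls on their members were mixed. In exons 5 primitive endoderm genes fell and 5 rose of 19 tested (median log2 change -0.006). Of 11 tested fibroblast and feeder genes, 2 fell and 3 rose (median -0.147). The part of these 2 lists in the results was not tested. Neural markers gave 1 fall (Ntn1, netrin) and 2 rises (Gap43 and Sema4d, a semaphorin) of 12 tested, with Neurog2 and Olig2 among those at 0 in introns. Trophoblast genes gave 1 fall (Tead4) and no rise of 11 tested, mesendoderm 1 fall (Kdr, lost in the 13-sample fit) and no rise of 3, and 2-cell-like genes 1 fall and 1 rise of 8.

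Intronic and exonic changes were then compared gene by gene. Of 12516 genes tested in both, 606 fell in both and 570 rose in both, while 110 passed in opposite directions. In the 13-sample fit 195 fell in both, 206 rose in both and 8 were opposite. Of all intronic calls in this comparison, 50.5% were called the same way in exons, and 23.4% of exonic calls were called the same way in introns. The test of the exonic minus the intronic change passed for 2579 genes (20.6%), with the exonic change lower in 1091 (8.72%) and higher in 1488 (11.9%), and for 1080 in the 13-sample fit. Of the 1176 genes that moved the same way in both, 191 also differed in size, and in 158 of those the exonic change was the larger.

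For 3747 genes the exonic change passed and the intronic one did not. In 1555 of them the difference itself passed (640 lower and 915 higher in exons), and in the other 2192 it did not. In the 13-sample fit 260 and 432 genes were exon-only by this rule, and 12 and 8 with counts summed over phases and the replicate block. The largest exon-only falls included Vstm2l, Tmprss2, St8sia5, Mep1b, Crym, Galnt9 and Slc44a3. For Vstm2l, Tmprss2, Mep1b and Crym the difference did not pass in the 13-sample fit (edgeR adjusted p = 0.0551, 0.0947, 0.0532 and 0.0673). Galnt9, an enzyme that starts O-glycan chains, was at 2.08, 2.74 and 4.18 exonic CPM with DOX and 0.655, 1.27 and 1.99 after withdrawal, without overlap. Its introns stood at 6.86, 9.29 and 11.1 CPM and then at 7.31, 10.4 and 13.8, so that the intronic ranges overlapped while the exons fell by 1.24. The intronic change was 0.12 ± 0.10, and the difference of -1.38 passed (edgeR adjusted p = 4.69e-05, and 0.00487 in the 13-sample fit).

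The largest exon-only rises were Ppef1, Tmprss11d, Mybpc1, Bcl2l15, Gpr173, Col14a1, Rsg1 and Ak7. For Bcl2l15 and Gpr173 the difference did not pass in the 13-sample fit (edgeR adjusted p = 0.0882 and 0.0797). Ak7, an adenylate kinase of ciliated cells, was at 4.99, 7.95 and 8.90 exonic CPM with DOX and 11.6, 15.5 and 20.7 after withdrawal, without overlap. Its introns were at 13.7, 18.9 and 25.0 CPM and then 16.0, 22.5 and 23.8, with wide overlap. Exonic Ak7 rose by 1.10, the intronic change was 0.15 ± 0.09, and the difference was 0.95 (edgeR adjusted p = 4.46e-05, and 0.00653 in the 13-sample fit). Mybpc1, a muscle myosin-binding protein gene, rose by 1.31 in exons with an intronic change of 0.03 ± 0.13.

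The reverse class held 1042 genes called in introns and not in exons, of which the difference passed in 396 (206 falls and 190 rises) and not in 646. In the 13-sample fit only 45 and 54 genes were intron-only by this rule, and none were with counts summed over phases and the replicate block. The largest falls were Hs3st6, Egr1, Bag5, Il11ra1 and Gstm3, of which Egr1 alone passed in introns in the 13-sample fit. Intronic Egr1 was at 3.28, 4.09 and 5.25 CPM with DOX and 1.65, 2.07 and 3.19 after withdrawal, without overlap, and its exons were at 10.3, 17.9 and 27.2 and then 8.48, 16.4 and 31.3. The exonic change of -0.11 did not pass, and the difference of 0.91 did (edgeR adjusted p = 0.000347, and 0.00619 in the 13-sample fit).

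The largest intron-only rises were Acvrl1, Dpp6, Prkar1b, Fam83f and Cdk8, of which Dpp6 and Prkar1b passed in introns in the 13-sample fit. The difference passed there for Dpp6 (edgeR adjusted p = 0.035) and not for Prkar1b (0.138). Dpp6, a subunit partner of neuronal potassium channels that spans 910.1 kb (chromosome 5, 27143896 to 28054040), was at 73.7, 87.6 and 107 intronic CPM with DOX and 128, 140 and 210 after withdrawal. It rose without overlap by 0.86 ± 0.06 (edgeR adjusted p = 2.17e-09, and 1.77e-05 in the 13-sample fit). Its exons stayed between 0.662 and 2.20 CPM in all samples, with a change of 0.06 that did not pass.

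**Figure D4:**
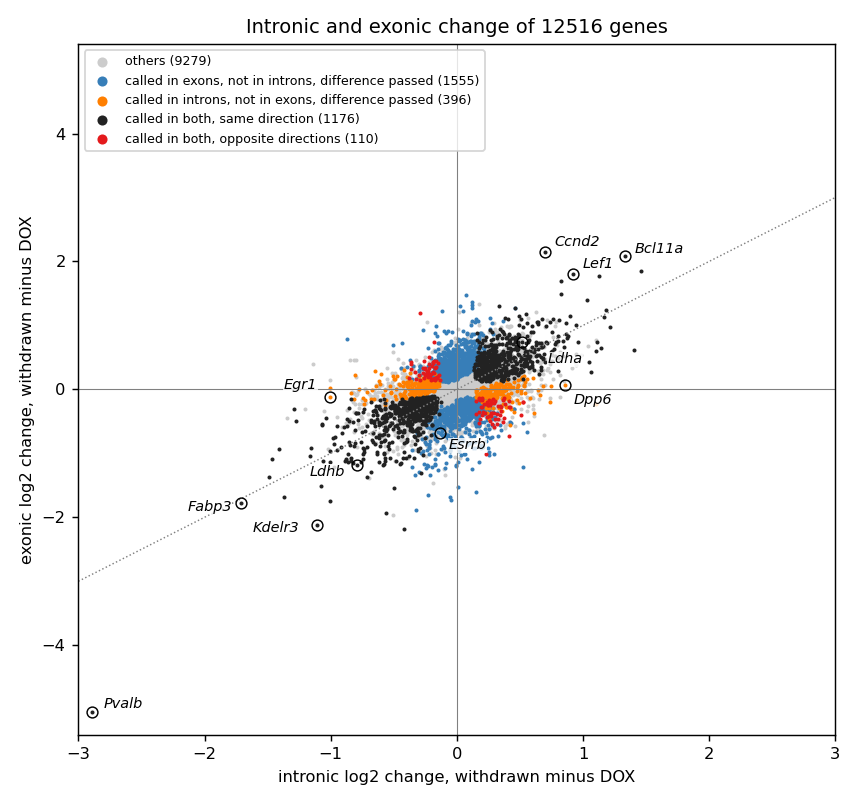
Exonic against intronic log2 change (withdrawn minus DOX) of the 12516 genes tested in both, coloured by class. The 1176 genes called the same way in both lie along the diagonal, the 1555 exon-only genes along the vertical axis and the 396 intron-only genes along the horizontal axis.

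Intronic changes followed the length of the gene. The median span was 16.8 kb for intronic falls and 79.7 kb for rises, against 27.6 kb for all genes tested. Genes were split into 5 classes of equal size by span. In the class with the shortest spans (0.826 to 10.5 kb), 14.2% fell and 2.2% rose, and in the class with the longest (80 to 2270 kb) 3.91% fell and 21.8% rose. In exons the gap was smaller, with medians of 17.9 kb for falls, 32.8 kb for rises and 21.6 kb for all. The difference in median intronic log2 change between the longest and shortest classes was positive in all 9 pairs of phase and number, from 0.02 to 0.39. The lowest was early G1 number 2 and the highest early G1 number 1. Because some libraries are near-identical across phase labels, the 9 pairs are not 9 independent replicates. With the trend on span removed from each library, 1941 genes changed in introns, 1044 down and 897 up, and all 24 of the largest changes named above still passed. Intronic Esrrb, which spans 160.5 kb, then fell by 0.23 (edgeR adjusted p = 0.00885). The oxidative list then gave 11 falls and 1 rise.

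**Figure D5:**
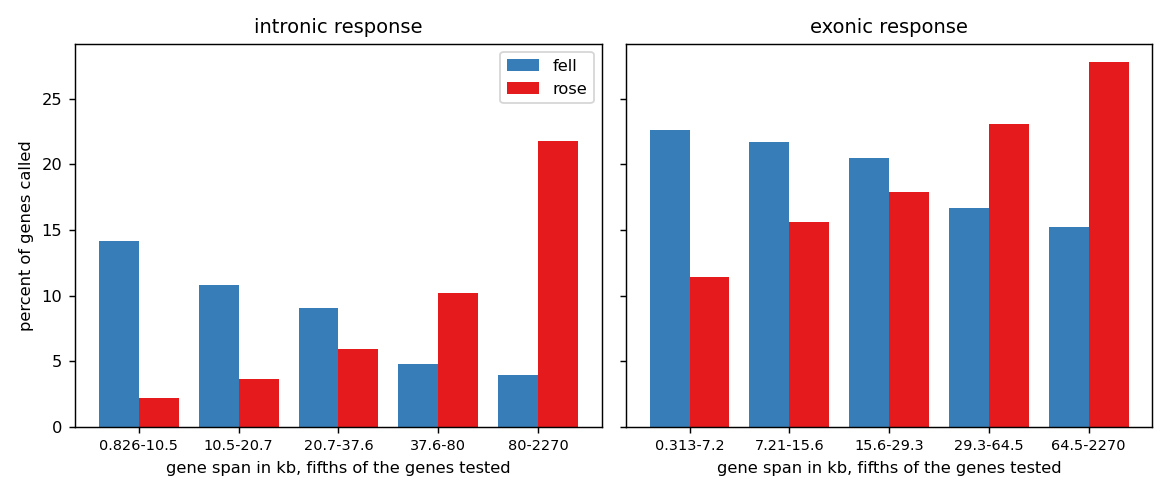
Percentage of tested genes whose intronic (one panel) or exonic (the other) counts fell or rose, by class of gene span (5 classes of equal size), from shortest to longest. In introns the share that fell goes from 14.2 to 3.91% and the share that rose from 2.2 to 21.8%.

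Esrrb peaks of the same series, measured by ChIP-seq in asynchronous and mitotic ES cells, were set beside the intronic calls. The ChIP-seq libraries with DOX include some labelled E14Tg2a, another label than that of the RNA-seq cells. Withdrawal in the ChIP-seq lasted 48 h, not 24 h. The deposited peak table holds 14559 peaks in build mm9. Among intronic falls, 67.7% had a peak within 50 kb of the transcription start, against 54.9% of rises and 57.8% of all genes tested. Genes that fell in both reads had one in 75.6% and those that rose in both in 58.1%, against 61.2% of the genes tested in both. Exon-only falls and rises stood at 70.3% and 61.4%. These shares also moved with span. In the shortest class a peak stood near 76.2% of falls, 71.0% of rises and 73.4% of all genes, and in the longest near 48.2%, 45.6% and 39.6%. In the classes between, from shorter to longer, these were 70.2, 68.4 and 51.9% of falls and 77.7, 65.9 and 56.8% of rises. All genes stood there at 67.5, 57.8 and 50.6%. Falls thus lay above all genes in every class, and rises in every class but the shortest, although rises lay below all genes without the split. Within the 5 classes the order of falls and rises was not constant, and no test was made of these shares.

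Promoter letters, 250 bases before to 50 after the start from RefSeq (GRCm38.p6), were searched for the ERR half-site and its core on both strands. A promoter was matched for 960 of the 1205 falls, 943 of the 1233 rises and 11202 of the 14075 genes tested. AAGGTCA was in 3.33% of falls, 4.24% of rises, 4.03% of genes tested and 4.72% of all promoters. The shorter AGGTCA, which every AAGGTCA holds, was in 14.6%, 18.9%, 15.3% and 16.3%. The extended TCAAGGTCA was in 0.312%, 0%, 0.312% and 0.423%. None of the 3 was in a larger share of intronic falls than of all promoters. Promoters of 4 genes that fell in introns are printed to show the span of cases, with motif letters in capitals. Tfcp2l1 (chr1:118627695-118627994, plus strand) holds no motif here although a peak lies 121 bp from its start. Sdhb (chr4:140961021-140961320, plus strand) has AGGTCA 86 bp before the start and a peak over the start. Ldhb (chr6:142507908-142508207, minus strand) has AGGTCA on the opposite strand 157 bp before the start and a peak 1.99 kb away. Pim3 (chr15:88861944-88862243, plus strand) has AAGGTCA on the opposite strand 171 bp before the start and a peak 3.13 kb away. Peak distances are in mm9 and promoter positions in GRCm38.p6, with no conversion between them.
Tfcp2l1: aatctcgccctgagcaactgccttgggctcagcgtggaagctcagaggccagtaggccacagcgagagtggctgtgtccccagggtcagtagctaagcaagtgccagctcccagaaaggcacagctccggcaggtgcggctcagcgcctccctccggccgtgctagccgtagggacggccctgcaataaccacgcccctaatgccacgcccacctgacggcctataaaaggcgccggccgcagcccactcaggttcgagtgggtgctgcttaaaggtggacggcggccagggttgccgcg
Sdhb: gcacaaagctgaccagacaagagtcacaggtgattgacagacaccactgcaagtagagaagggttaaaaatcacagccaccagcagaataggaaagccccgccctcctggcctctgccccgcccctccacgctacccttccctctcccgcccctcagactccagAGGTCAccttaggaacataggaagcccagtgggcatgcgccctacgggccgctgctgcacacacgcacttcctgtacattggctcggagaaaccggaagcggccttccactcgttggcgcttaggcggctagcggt
Ldhb: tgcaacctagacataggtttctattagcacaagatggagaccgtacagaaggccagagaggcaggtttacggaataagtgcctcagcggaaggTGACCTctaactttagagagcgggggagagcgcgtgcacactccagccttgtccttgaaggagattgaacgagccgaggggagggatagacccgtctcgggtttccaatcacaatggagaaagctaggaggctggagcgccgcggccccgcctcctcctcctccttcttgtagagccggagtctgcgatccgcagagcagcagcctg
Pim3: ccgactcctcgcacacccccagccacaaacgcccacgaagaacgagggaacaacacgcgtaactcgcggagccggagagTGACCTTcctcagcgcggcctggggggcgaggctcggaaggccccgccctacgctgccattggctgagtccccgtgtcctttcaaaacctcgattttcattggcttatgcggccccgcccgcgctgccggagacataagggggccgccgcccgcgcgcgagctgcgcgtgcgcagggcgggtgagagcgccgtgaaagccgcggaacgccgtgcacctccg

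The response was last read by phase. No gene passed the edgeR test for a difference in intronic response between phases, with or without the replicate block, and 247 of 14075 genes (1.75%) had an unadjusted p under 0.05 with it and 76 without it. Fabp3 had log2 changes of -1.32, -1.69 and -2.25 (early G1, late G1, G2), Tfcp2l1 -0.65, -0.72 and -0.76, and Gap43 1.28, 1.31 and 1.07. All 3 genes kept their direction in every phase. Fitted alone, early G1 gave 59 calls, late G1 120 and G2 224. Since the 5 near-identical pairs cross phase labels, phases share samples and these counts are no test of a difference between them. For the same reason the edgeR test above set some samples largely against themselves. Its lack of calls therefore does not show that the phases responded alike. The direction kept in every phase is likewise no separate support.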

How the data were processed

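The 18 RNA-seq libraries were made with a stranded mRNA kit, per the labels' protocols. Per the file headers, the authors deposited raw counts for each RefSeq transcript, over exons (20300 genes) and over introns (17916 genes, leaving out 2377 blank lines). The submitters' processing notes name mm9, CASAVA 1.8, Bowtie and DESeq2. No label or header used here gives the counting tool or its strand setting. Overlapping genes (9.38% of intronic falls, 7.95% of rises and 10.5% of all) are therefore uncertain. In the tables, 27 symbols turned into dates were restored by accession. The deposited peak table was used for positions and, in an alternative, for the authors' log2 height in pooled interphase libraries. Its other 15 columns of values were not used.

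Counts were fitted with edgeR 4.0.16 in R 4.3.3 (filterByExpr, TMM, quasi-likelihood F test, Benjamini-Hochberg 0.05) on state, phase and replicate number, leaving 12 residual degrees of freedom. The exonic minus intronic difference came from 1 model of 36 columns with library as a block. SE is the log2 change divided by the root of F. CPM are TMM-scaled. Scripts were tested on simulated data. Members and gene lists were chosen with earlier results of these data known. Genes named are the 12 largest falls and rises, the 8 largest exon-only and 5 largest intron-only changes per direction, and list members that passed; a few such genes are not reported here. Alternatives were other scalings, filters, tools (DESeq2 1.42.0, limma 3.58.1), blocks, phases and left-out libraries. The fits over 13 samples (counts of a pair summed, replicate number as block, no phase term), without a replicate number and with the span trend removed were added after the data were seen.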

Additional observations from a re-analysis of the deposited data

Results flagged for a closer look

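Over the intronic levels of the genes named, 102 groups of distinct samples were tested for a sample far from the others, and 3 held one, where chance gives about 5.1. Hs3st6, a heparan sulfate sulfotransferase gene, stood at 3.11 CPM in G2 with DOX (number 2), against 1.02 to 1.44 in the other DOX samples. Ppef1, a phosphatase gene, stood at 2.28 CPM in the DOX sample that joins early and late G1 of number 2, against 3.34 to 3.97 in the others. Tmprss11d, a membrane protease gene, stood at 10.0 CPM in G2 after withdrawal (number 1), against 3.75 to 5.98 in the other withdrawn samples.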

How the results depend on the processing

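Against 2438 intronic calls, library totals gave 3741, no replicate block 736, counts summed over phases 502 with the block and 0 without it (962 at an unadjusted p under 0.05), early G1, late G1 and G2 alone 59, 120 and 224, the 13 distinct samples 963 with the block and 138 without it, and leaving out all libraries of number 1 or 3 gave 1361 and 1398. Against 5426 exonic calls, these were 2920 without the replicate block, 1790 and 18 summed over phases with and without it, 193, 631 and 612 by phase, and 3023 and 1307 over the 13 samples. Against 2579 calls of the difference, they were 1062 without the replicate block, 23 and 0 summed over phases (1128 at an unadjusted p under 0.05 without the block, edgeR), 4, 15 and 60 by phase, 1080 and 308 over the 13 samples, and 1285 without number 1. Leaving out 1 library at a time gave 1891 to 2383 intronic calls, 4802 to 5277 exonic calls and 2061 to 2542 calls of the difference. The other counts stayed within 1.5 times: intronic calls numbered 2429 with RLE scaling, 2478 with DESeq2, 1702 with limma-voom, 2303 without a filter on low counts and 2937 with exonic library sizes. Under library totals the difference split into 178 genes higher and 3418 lower in exons, against 1488 and 1091. The replicate number was a block by design, and the labels do not say what it marks. Deviations of same-numbered DOX and withdrawn libraries correlated at 0.09 to 0.44 over 9 pairs, 1 of them under 0.1, and each pair was highest with its own number, a hint from the data alone.

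Within 10 kb of a start, peaks stood near 38.2% of intronic falls, 25.1% of rises and 26.2% of all genes, within 100 kb near 81.2%, 71.4% and 73.2%, and with the higher-ranking peaks by the authors' interphase height alone near 52.0%, 39.1% and 40.7%. None of these shares was split by gene span. With library totals, 181 of the 2438 intronic calls turned sign, all of them falls. Among the genes named, 9 falls did so: Tcf3 (0.0238), Hadhb (0.0378), Sdhb (0.0113), Cox5a (0.00029), Pkp2 (0.0275), Itga3 (0.0187), Cdk4 (0.0199), Orc1 (0.0251) and Gtse1 (0.0053). The cause of each change was not tested. The smaller fits hold fewer samples, and those over distinct samples or summed over phases also merge counts and lack a phase term. The effect of sample number alone was therefore not tested.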
